A study of Mus musculus with 36 samples.

Results

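The 38 Hox genes examined here were protein-coding genes of the 4 Hox clusters and made up 38 of 22232 protein-coding genes in the annotation used (GENCODE vM1, mouse build mm9). They were given as a list of names and comprised 10 genes of HoxA, 10 of HoxB, 9 of HoxC and 9 of HoxD. Hox genes encode homeodomain transcription factors that give cells their position along the head to tail axis of the embryo. The order of the genes on the chromosome follows the order of their expression along that axis, with low group numbers expressed anteriorly and high group numbers posteriorly. In pluripotent cells the clusters are classically held silent by Polycomb proteins, and anterior Hox genes are switched on by retinoic acid and other signals during neural differentiation.

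The ChIP-seq study, which sequences the DNA precipitated with a protein, compared where chromatin regulators bind in embryonic stem cells of the mouse (ESCs) and in neural progenitors (NPCs) derived from them. MBD3 and CHD4 belong to NuRD, the nucleosome remodeling and deacetylase complex, SIN3A is the scaffold of a different histone deacetylase complex, and ZFP296 is a zinc finger protein of ESCs. Peak lists of 9 of the 36 samples were analysed, 7 from ESCs grown in serum and LIF with 2i and 2 from NPCs grown in NPC medium. Wild-type R1 ESCs gave MBD3 and CHD4 lists in 2 replicates each and 2 SIN3A lists, 1 prepared with spike-in chromatin and 1 prepared without it. Wild-type NPCs derived from R1 ESCs gave 1 list each for MBD3 and CHD4, and GFP-ZFP296 was precipitated with a GFP antibody from a line that its label calls ZFP296-BAC R1 ESCs. In the methods of the study the GFP-ZFP296 construct is carried by another ESC line, KH2, so the line behind that list is not settled. The study calls the MBD3 replicates biological, the labels do not say whether the replicates came from separate cultures, and the NPC and GFP-ZFP296 lists have no replicate.

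The lists differed in length from 2304 peaks (NPC MBD3) to 29974 peaks (ESC CHD4 replicate 2). The 29974 names in the latter list all carry the words of a Zfp219 BAC while the label gives wild-type cells, and the main counts that rest on it are given with and without it. All 7 lists other than those of SIN3A carry names that mention an equal number of reads, and the number of reads behind both SIN3A lists is unknown. Each peak carries the authors' −log10 value, where a higher value means stronger statistical support over input, and values are read within a list only. A gene was counted as having a peak where a peak midpoint lay within 1 kb of one of its annotated transcription start sites (TSSs). No test was made over the genes, because neighbours in a cluster share peaks and are not replicates. Peaks do not measure expression, so the labelled cell types were not checked against marker genes. Intervals are exact 95% intervals and cover counting error only.

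Both sites of the clusters at which all 7 ESC lists had a peak lay between genes, near the posterior end of HoxB and of HoxC, and their sequences are shown with that of a nearby GFP-ZFP296 peak. The central 200 bases were read from the mm9 reference on the plus strand. Capitals mark matches to the string AAGGTCA, the half-site bound by nuclear receptors, to its extended form TCAAGGTCA, bound by the orphan receptor ESRRB, or to the octamer ATGCAAAT bound by POU5F1, on either strand. AAGGTCA is contained in TCAAGGTCA, and both were chosen after these sequences were seen. The third site was also chosen after its values were seen, because it held the only other GFP-ZFP296 peak of the clusters.
HoxB site, 3.78 kb upstream of the Hoxb13 TSS, chr11:96051614-96051813: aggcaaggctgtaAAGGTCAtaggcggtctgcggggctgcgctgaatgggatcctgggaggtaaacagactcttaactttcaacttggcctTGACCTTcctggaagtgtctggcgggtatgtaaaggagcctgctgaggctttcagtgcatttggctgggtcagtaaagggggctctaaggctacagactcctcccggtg
HoxC site, 4.74 kb upstream of the Hoxc12 TSS, chr15:102762168-102762367: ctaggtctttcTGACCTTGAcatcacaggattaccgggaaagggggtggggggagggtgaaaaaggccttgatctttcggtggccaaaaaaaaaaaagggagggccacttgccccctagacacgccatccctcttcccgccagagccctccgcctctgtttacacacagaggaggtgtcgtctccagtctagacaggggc
second HoxC GFP-ZFP296 site, 3.54 kb upstream of the Hoxc12 TSS, chr15:102763536-102763735: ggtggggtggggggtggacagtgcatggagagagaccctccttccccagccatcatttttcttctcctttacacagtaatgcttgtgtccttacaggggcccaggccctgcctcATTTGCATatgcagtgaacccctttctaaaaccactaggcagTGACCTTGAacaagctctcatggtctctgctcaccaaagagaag
The HoxB site held AAGGTCA on both strands, at positions 14 and 92 from the 5′ end. The HoxC site held TCAAGGTCA on the minus strand at position 12. The second HoxC site held the octamer at position 115 and TCAAGGTCA at position 157, both on the minus strand, and no CpG. In the central 200 bp of the 3 GFP-ZFP296 peaks themselves AAGGTCA occurred in 3 of 3, against 13.7% of all GFP-ZFP296 peaks, and TCAAGGTCA in 2 of 3, against 2.53%. Over all peaks AAGGTCA was found in 16.9% and 16.8% of the ESC MBD3 peaks (replicates 1 and 2), in 10.5% and 8.58% of the ESC CHD4 peaks, in 4.3% of the NPC MBD3 peaks and in 4.14% of the NPC CHD4 peaks. In the clusters it was found in 2 of 3 and 1 of 8 ESC MBD3 peaks, in 2 of 17 (11.8%) and 3 of 45 (6.67%) ESC CHD4 peaks and in 0 of 8 NPC CHD4 peaks, and the interval of each of these shares included the share over all peaks. That of GFP-ZFP296 (29.2 to 100%) lay above it. The 3 GFP-ZFP296 peaks lie at the sites shown here, after which the strings were chosen, so their shares cannot show an enrichment. A match of letters is a description of the sequence and does not show that a receptor was bound.

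At the HoxB site (chr11:96051457-96052248, all peaks merged) the authors' value was 13.4 in MBD3 replicate 1 and 11.9 in MBD3 replicate 2. It was 6.09 in CHD4 replicate 1 and 18.3 in CHD4 replicate 2. GFP-ZFP296 had a value of 7.71 there. SIN3A had values of 20.3 without spike-in and 17.4 with spike-in. These values ranked above 86.6% and 78.6% of the peaks of the MBD3 lists and above 85.1% and 91% of the SIN3A lists. They ranked above 24.7% of CHD4 replicate 1 peaks, 92.4% of CHD4 replicate 2 peaks and 42.1% of GFP-ZFP296 peaks, so the CHD4 replicates differed in rank at this site. In NPCs the nearest peaks of MBD3 and of CHD4 were 172 kb away.

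At the HoxC site (chr15:102761976-102762921) MBD3 had values of 6.06 and 10.1 in replicates 1 and 2, above 21.7% and 65.8% of these lists. CHD4 had values of 14.2 and 8.86 at 2 adjacent peaks of replicate 1 and of 15.6 in replicate 2. The CHD4 peaks ranked above 87.7%, 58.6% and 87.6% of their lists in this order. GFP-ZFP296 had a value of 6.95, above 30.9% of its list. SIN3A reached 25.4 without spike-in, above 92.5% of that list, and 17.2 with spike-in, above 90.3%. The nearest NPC peaks were 306 kb away for MBD3 and 208 kb away for CHD4. At the second HoxC site GFP-ZFP296 had a value of 6.69 and CHD4 replicate 2 a value of 14.5, and no other list had a peak. The HoxB and HoxC sites were the only 2 sites in the clusters found in both ESC MBD3 lists, and only the HoxC site remained where the MBD3 peaks had to overlap by 50% of the shorter peak.

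**Figure D1:**
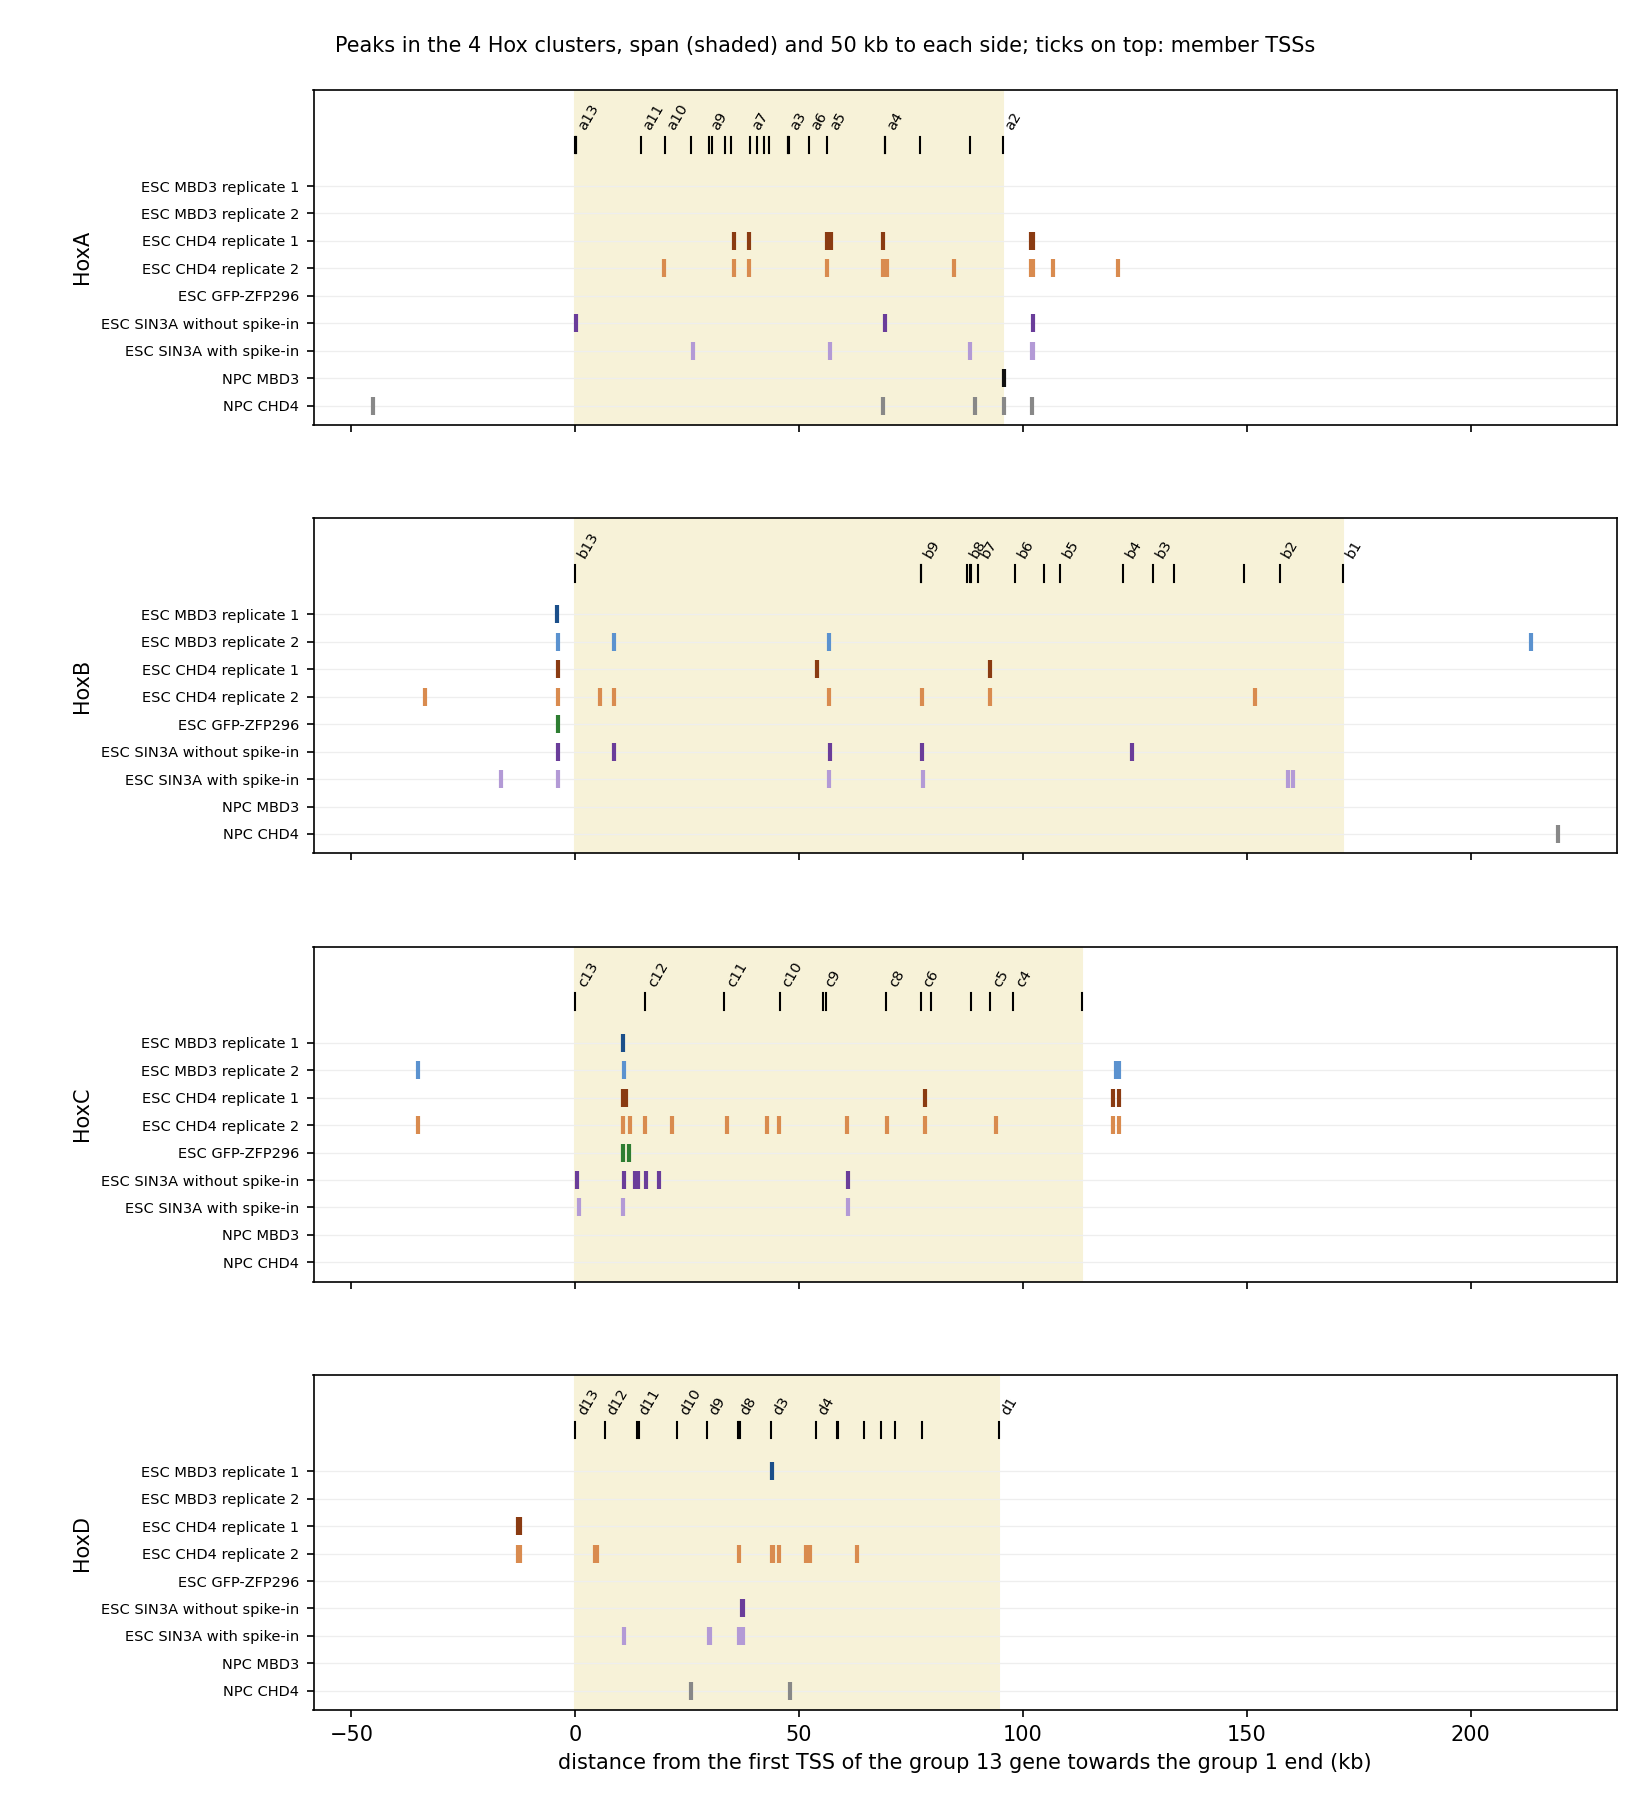
Peaks of the 9 lists (1 row each, 1 tick per peak midpoint) along the 4 Hox clusters, with distance in kb from the first TSS of the group 13 gene, running towards the group 1 end. Shading marks the span from the first to the last TSS of the genes examined, black ticks are their TSSs and each name stands at the TSS nearest the group 13 end. The columns of 7 ticks 3.78 kb before Hoxb13 and 4.74 kb before Hoxc12 are the sites found in all ESC lists, and the NPC rows of HoxC are empty.

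For the whole clusters, each span was extended by 50 kb to both sides, which covered 0.875 Mb in all. Peaks per Mb there were set against the rest of the same 4 chromosomes. Beyond counting error they were higher in both ESC CHD4 lists, in both SIN3A lists and in ESC MBD3 replicate 2. For ESC MBD3 replicate 1, GFP-ZFP296 and both NPC lists the interval included the level of the rest of the chromosomes. CHD4 had 17 peaks in ESC replicate 1 (19.4 per Mb, interval 11.3 to 31.1) against 5.95 per Mb on the rest of the chromosomes. In ESC replicate 2 it had 45 peaks (51.4 per Mb, 37.5 to 68.8) against 13.9. In NPCs CHD4 had 8 peaks (9.14 per Mb, 3.95 to 18) against 9.7. Both ESC intervals lay above the level of their chromosomes, and the NPC interval included it. The lists held 11712, 29974 and 20234 peaks in this order, and cut to their 2304 highest peaks they had 3, 3 and 0 peaks in the clusters.

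SIN3A had 17 peaks without spike-in (19.4 per Mb, 11.3 to 31.1, against 7.67) and 19 with spike-in (21.7 per Mb, 13.1 to 33.9, against 5.48). MBD3 had 3 peaks in ESC replicate 1 (3.43 per Mb, 0.707 to 10, against 1.09), 8 in ESC replicate 2 (9.14 per Mb, 3.95 to 18, against 3.34) and 1 in NPCs (1.14 per Mb, 0.0289 to 6.37, against 1.12). GFP-ZFP296 had 3 peaks (3.43 per Mb, 0.707 to 10, against 1.4). The intervals of MBD3 replicate 1 and GFP-ZFP296 included the level of the rest of the chromosomes. The clusters are dense in genes and CpGs, with 50.3 protein-coding genes per Mb and 1.87 CpGs per 100 bp against 8.41 and 0.834 over chromosomes 1 to 19 and X. The part of this density in the peak numbers was not tested.

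**Figure D2:**
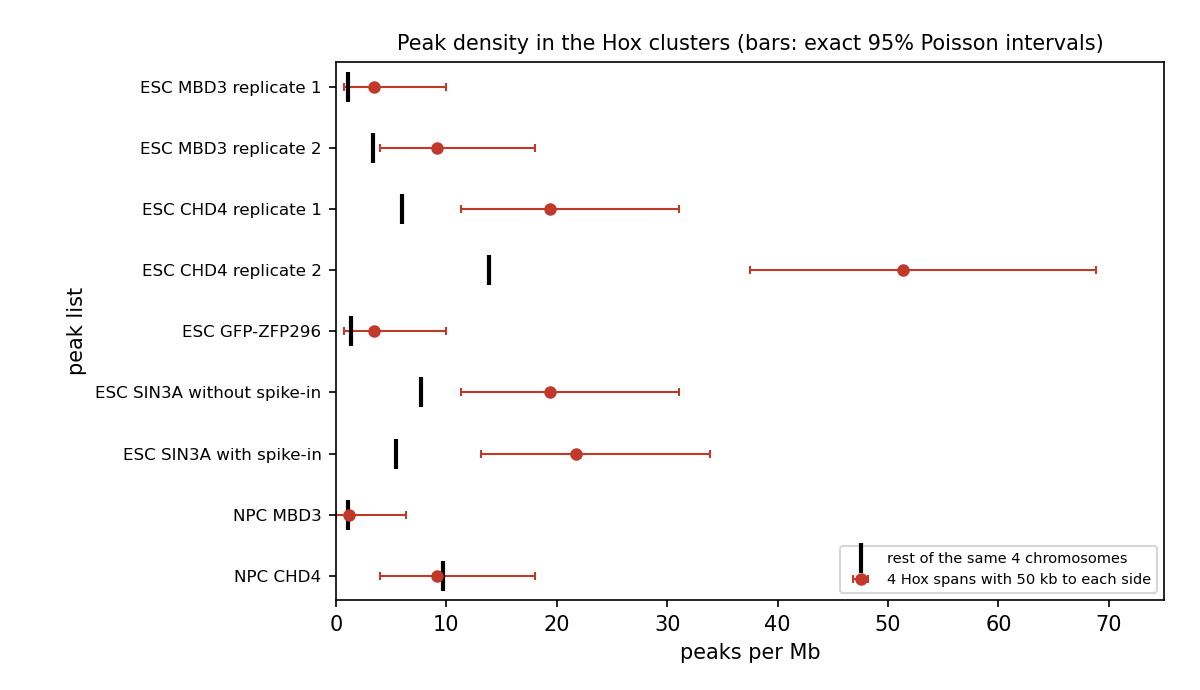
Peaks per Mb in the 4 Hox spans with 50 kb to each side (red points with exact 95% Poisson intervals) and on the rest of the same 4 chromosomes (black bars), for each list. The points of both CHD4 and both SIN3A lists of ESCs lie at 19.4 to 51.4 per Mb, and the point of NPC CHD4 (9.14) lies beside its black bar (9.7).

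By cluster, the counts were small, most intervals included the level of the rest of the chromosome, and no difference between clusters was tested. In HoxA, on chromosome 6, CHD4 had 7 and 12 peaks in the ESC replicates (14.4 to 73.8 and 31.7 to 107 per Mb, against 6.72 and 11.1), and both intervals lay above that level. SIN3A had 3 and 5 peaks there, without and with spike-in. MBD3 had 0 peaks in either ESC list and GFP-ZFP296 had 0, where counting error allows up to 18.9 per Mb and the rest of the chromosome had 1.38, 1.97 and 0.549. HoxA held 5 of the 8 NPC CHD4 peaks (8.31 to 59.7 per Mb, against 10.3) and the only NPC MBD3 peak.

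HoxB had 1 and 4 ESC MBD3 peaks, 3 and 8 ESC CHD4 peaks (2.28 to 32.3 and 12.7 to 58.1 per Mb, against 8.14 and 20.4), 1 GFP-ZFP296 peak and 5 and 6 SIN3A peaks. Its only NPC peak was of CHD4, 48 kb downstream of the Hoxb1 TSS. HoxC had 1 and 4 ESC MBD3 peaks, 5 and 14 ESC CHD4 peaks (7.61 to 54.7 and 35.9 to 110 per Mb, against 4.48 and 12.3), 2 GFP-ZFP296 peaks and 7 and 3 SIN3A peaks. In NPCs HoxC had 0 MBD3 and 0 CHD4 peaks, where counting error allows up to 17.3 per Mb and the rest of the chromosome had 0.929 and 8.83. HoxD had 1 and 0 ESC MBD3 peaks, 2 and 11 ESC CHD4 peaks (1.24 to 37.1 and 28.2 to 101 per Mb, against 4.68 and 12.7), 0 GFP-ZFP296 peaks, 2 and 5 SIN3A peaks and 2 NPC CHD4 peaks. The ESC CHD4 intervals thus lay above the rest of the chromosome in both replicates in HoxA and HoxC, in replicate 2 alone in HoxD and in neither in HoxB. Of the NPC CHD4 peaks of the clusters 2 of 8 overlapped an ESC CHD4 peak (25%, 3.19 to 65.1), against 15.6% of all NPC CHD4 peaks. The NPC MBD3 peak overlapped no ESC MBD3 peak, as did all but 10.1% of the whole NPC MBD3 list. Neither differed detectably from its list.

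Merging overlapping peaks over all lists gave 71 sites, of which 63 had peaks in ESCs alone (88.7%), 6 in NPCs alone (8.45%) and 2 in both (2.82%). Merged in the same way over the whole genome, 67.2% of 62184 sites were of ESCs alone, 26.1% of NPCs alone and 6.63% of both, with 7 ESC lists entering against 2 of NPCs. Without ESC CHD4 replicate 2 there were 51 sites in the clusters, 43 of ESCs alone (84.3%, against 57.9% over the genome), 6 of NPCs alone and 2 of both. Peaks of 1 list made up 47 of the 71 sites (66.2%, against 64.1%). The 2 sites in all 7 ESC lists made up 2.82%, against 0.375%. That share rests on 2 sites alone, no interval was computed for it, and the difference was not tested. By the middle of the site, 27 lay in exons, 15 in introns and 29 between genes. Without ESC CHD4 replicate 2 these numbers were 23, 8 and 20. The TSS of a Hox gene lay within 1 kb of 27 sites, of which 13 were in HoxA, 1 in HoxB, 7 in HoxC and 6 in HoxD, and without that list of 11, 1, 3 and 6 in the same order. In HoxB all sites but that of Hoxb9 lay away from the start sites of its Hox genes.

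At the start sites themselves, the share of Hox genes with a CHD4 peak in ESCs was near the share over all genes, and the share with a SIN3A peak was lower. CHD4 was found at 4 of 38 genes in ESC replicate 1 (10.5%, interval 2.94 to 24.8), against 8.03% of all genes. In ESC replicate 2 it was found at 13 genes (34.2%, 19.6 to 51.4), against 21.8%. The same 4 genes, Hoxa4, Hoxa5, Hoxa7 and Hoxa9, had a CHD4 peak in both replicates (10.5% against 6.28% of all genes), and all were in HoxA. SIN3A was found at 6 genes without spike-in (15.8%, 6.02 to 31.3), against 41% of all genes, and at 7 with spike-in (18.4%, 7.74 to 34.3), against 33.5%. A SIN3A peak was present in both lists at 3 genes, Hoxb9, Hoxc13 and Hoxd8 (7.89%, 1.66 to 21.4), against 30.1%. Either SIN3A list had a peak at 10 of the 38 genes (26.3%, 13.4 to 43.1), against 44.4% of all genes. In the list without spike-in, for either list and for both lists together, the share over all genes lay above the interval of the Hox genes, while with spike-in it lay inside the interval. A low SIN3A share was not particular to Hox genes. The 51 homeobox genes outside the clusters had 21.6% (11.3 to 35.3) without and 23.5% (12.8 to 37.5) with spike-in. In ESCs 6 genes had both a SIN3A and a CHD4 peak within 1 kb of a TSS (15.8%, against 18.5% of all genes). These were Hoxa4, Hoxa5, Hoxa10, Hoxb9, Hoxc12 and Hoxd8. The SIN3A and CHD4 peaks did not overlap at Hoxa4, Hoxa5 or Hoxa10, and at Hoxa10 they lay at different start sites.

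MBD3 was found at 1 Hox gene, Hoxd3, in ESC replicate 1 (2.63%, 0.0666 to 13.8, against 2.19% of all genes). It was found at 0 genes in ESC replicate 2 (up to 9.25%, against 3.07%) and at 0 genes in both lists, against 0.81%. GFP-ZFP296 was found at 0 Hox genes, against 2.7%. In NPCs MBD3 was found at 1 gene, Hoxa2 (2.63%, against 2.34%), and CHD4 at 2 genes, Hoxa2 and Hoxa4 (5.26%, 0.644 to 17.7, against 12.4%). At these numbers no difference from all genes was detectable for MBD3, GFP-ZFP296 or NPC CHD4.

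**Figure D3:**
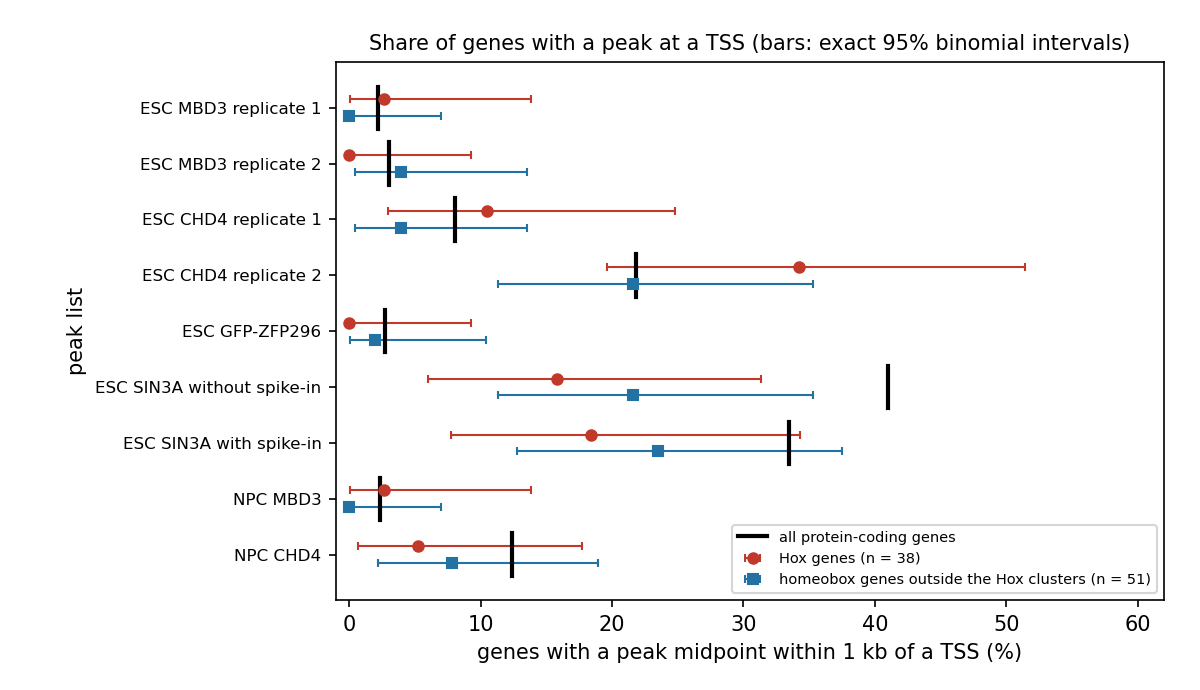
Percent of genes with a peak midpoint within 1 kb of a TSS, for 38 Hox genes (red circles) and 51 homeobox genes outside the clusters (blue squares), with exact 95% binomial intervals, and for all protein-coding genes (black bars). The red points of the SIN3A lists (15.8% and 18.4%) lie to the left of their black bars (41% and 33.5%), as do the blue squares (21.6% and 23.5%). The red point of ESC CHD4 replicate 2 (34.2%) lies to the right of its bar (21.8%).

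Over all 9 lists, 18 of the 38 genes had a peak at a TSS (47.4%, against 51.7% of all genes) and 20 had none. Any of the 7 ESC lists had a peak at 17 genes (44.7%, 28.6 to 61.7, against 49.9%), and at 13 without ESC CHD4 replicate 2 (34.2%, against 46.6%). By cluster, 8 of 10 HoxA genes, 1 of 10 HoxB genes, 6 of 9 HoxC genes and 3 of 9 HoxD genes had a peak. In the ESC lists without CHD4 replicate 2, HoxC had 2 of 9, since Hoxc6, Hoxc8, Hoxc10 and Hoxc11 had a peak in that list alone. By position, ESC peaks were found at 3 of 11 anterior genes (groups 1 to 4), 5 of 11 central genes (groups 5 to 8) and 9 of 16 posterior genes (groups 9 to 13). Without ESC CHD4 replicate 2 they were found at 3, 3 and 7 genes, so the difference between anterior and central genes rested on that list. NPC peaks were found at 2 of 11 anterior, 0 of 11 central and 0 of 16 posterior genes, with 13.1% over all genes.

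Anterior genes pattern the hindbrain and the neck region of the embryo, and both genes with an NPC peak at a TSS were of this class. The intervals of the central (0 to 28.5%) and posterior (0 to 20.6%) genes include the share over all genes, as does that of the anterior genes (2.28 to 51.8%), and the classes were not tested against each other. Hoxa2, which specifies the second branchial arch, had an NPC MBD3 peak of value 8.28 at 267 bp downstream of the TSS and an NPC CHD4 peak of 7.02 at 284 bp downstream. It had no peak within 1 kb in any ESC list, and the nearest ESC MBD3 peak was 58.3 kb away in replicate 1. A peak of both NPC lists was present at 1.65% of all genes. Hoxa4 had CHD4 peaks in both cell types, with values of 12.9 in ESC replicate 1, 10.3 in ESC replicate 2 and 13.1 in NPCs. Their midpoints lay 366, 262 and 455 bp upstream of the nearest TSS, and the NPC peak ranked above 78.1% of its list. Hoxa4 was the only gene of the 38 with a CHD4 peak in both ESC lists and in the NPC list, against 2.69% of all genes.

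The central 200 bases of the Hoxa4 CHD4 peak of ESC replicate 1 (mm9, plus strand, in an intron of an overlapping transcript of Hoxa3) are shown because this site carried CHD4 in ESCs and in NPCs. Capitals mark its 12 CpGs.
Hoxa4 site, chr6:52142018-52142217: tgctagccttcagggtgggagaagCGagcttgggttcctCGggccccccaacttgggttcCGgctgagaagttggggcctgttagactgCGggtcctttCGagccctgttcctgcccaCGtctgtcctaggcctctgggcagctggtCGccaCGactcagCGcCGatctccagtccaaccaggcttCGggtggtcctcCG
Hoxa4 also had a SIN3A peak of 9.05 without spike-in, 24 bp downstream of its TSS, and none with spike-in. Hoxa3, of the same cluster, had a SIN3A peak of 6.07 with spike-in alone, 38 bp downstream of a TSS. Hoxd3 had the only MBD3 peak of ESCs at a TSS of the 38 genes (5.41 in replicate 1, 307 bp downstream). CHD4 replicate 2 had a peak of 10.4 there. No peak was found in any list within 1 kb of the TSS of Hoxb1, Hoxb2, Hoxb3, Hoxb4, Hoxc4, Hoxd1 or Hoxd4.

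Central genes act in the trunk of the embryo. Hoxa5, which is needed for the development of the lung, had CHD4 values of 7.30 in ESC replicate 1 and 6.74 in replicate 2 at midpoints 23 and 8 bp downstream of its TSS, and a SIN3A value of 8.78 with spike-in, 520 bp downstream. Hoxa7 had CHD4 values of 6.08 and 15.4 in the replicates, 110 and 226 bp upstream of the outermost upstream one of its 4 annotated start sites. Hoxd8 had a CHD4 value of 13.6 in replicate 2 alone and SIN3A values of 7.34 and 9.40 without and with spike-in. Hoxc6 and Hoxc8 had CHD4 values of 8.41 and 8.88 in replicate 2 alone, at 980 and 65 bp downstream. At Hoxc6 the peak of CHD4 replicate 1 that overlapped it had its midpoint 1.04 kb from the TSS, just outside the window. Hoxa6, Hoxb5, Hoxb6, Hoxb7, Hoxb8 and Hoxc5 had no peak within 1 kb of a TSS.

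Posterior genes act in the caudal trunk, the limbs and the genital tract. Hoxa9, a regulator of blood stem cells, had CHD4 values of 8.16 and 16.6 in the ESC replicates at midpoints 656 and 657 bp downstream of a TSS, the latter above 89.4% of its list. Hoxa10 had a CHD4 value of 8.89 in replicate 2 and a SIN3A value of 4.90 with spike-in, at different start sites. Hoxb9 was the only HoxB gene with a peak at its TSS, with CHD4 at 8.0 in replicate 2 (341 bp downstream) and SIN3A at 7.08 and 10.01 without and with spike-in (320 and 452 bp downstream). Hoxc12 had a CHD4 value of 10.7 in replicate 2 and a SIN3A value of 8.46 without spike-in, within 68 bp of its TSS. Hoxc10 and Hoxc11 had CHD4 values of 7.66 and 7.34 in replicate 2 alone.

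Hoxa13, which patterns the digits, had a SIN3A peak of 9.51 without spike-in, 18 bp downstream of a TSS. Hoxd9 had SIN3A with spike-in alone, at 6.85. Hoxc13, which controls hair and nail formation, had SIN3A values of 12.1 without spike-in (0.392 kb downstream) and 9.56 with spike-in (0.908 kb downstream), at peaks that did not overlap. The former was the highest SIN3A value at any Hox TSS without spike-in, and the TSS of Gm17649 also lay within 1 kb of that peak. Its central 200 bases (mm9, plus strand, in an exon of Hoxc13) are shown with its 21 CpGs in capitals.
Hoxc13 site, chr15:102751827-102752026: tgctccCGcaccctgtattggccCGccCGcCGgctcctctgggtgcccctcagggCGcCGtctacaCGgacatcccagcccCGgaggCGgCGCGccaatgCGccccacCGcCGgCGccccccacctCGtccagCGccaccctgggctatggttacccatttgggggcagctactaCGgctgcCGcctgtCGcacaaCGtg
In comparison, the HoxB site in all ESC lists held 5 CpGs and the HoxC site 6 in the same length. Hoxa11, Hoxb13, Hoxc9, Hoxd10, Hoxd11, Hoxd12 and Hoxd13 had no peak within 1 kb of a TSS in any list.

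**Figure D4:**
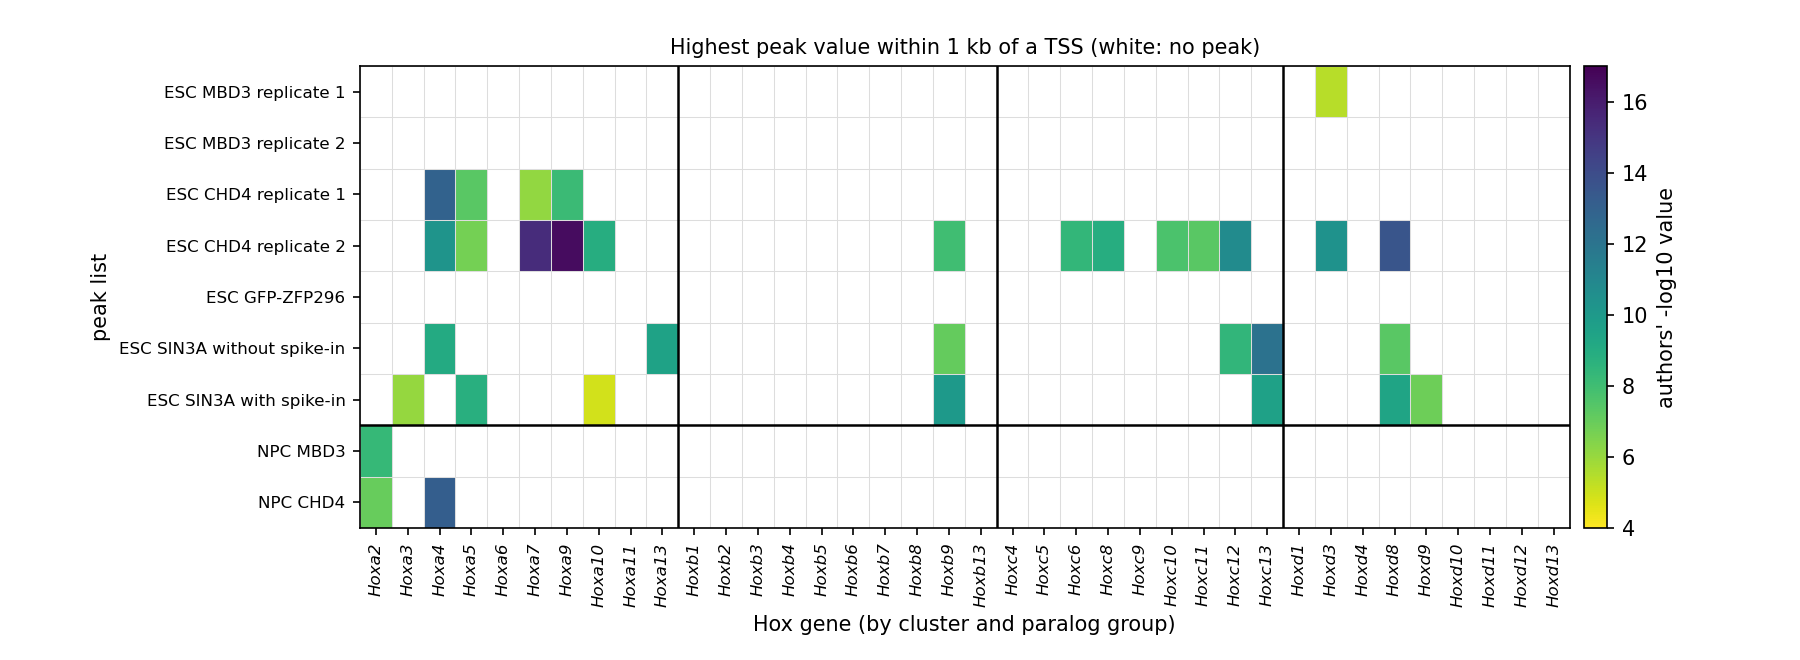
The authors' −log10 value (colour) of the highest peak within 1 kb of a TSS for each of the 38 Hox genes (columns, by cluster and paralog group) in each list (rows), white where no peak was found. Values run from 4.90 to 16.6, HoxB has coloured cells at Hoxb9 alone, and the NPC rows have them at Hoxa2 and Hoxa4 alone.

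Genes without a peak at their TSS could still lie close to one. The median distance from a Hox gene to the nearest CHD4 peak was 15 kb in ESC replicate 1 and 3.67 kb in ESC replicate 2, against 91.2 kb and 21.4 kb over all genes. In NPCs it was 51 kb, against 43.6 kb. For MBD3 the medians were 73.8 kb and 64.9 kb in the ESC replicates, against 343 kb and 127 kb, and 271 kb in NPCs, against 354 kb. For SIN3A they were 14.5 kb without and 9.24 kb with spike-in, against 15.4 kb and 31.2 kb. By cluster the NPC CHD4 median was 20.9 kb in HoxA, 10.4 kb in HoxD, 113 kb in HoxB and 197 kb in HoxC. In both ESC CHD4 lists the median of each cluster was below that of all genes, from 5.25 to 41.8 kb in replicate 1 and from 0.98 to 4.81 kb in replicate 2. In ESC MBD3 replicate 2 the medians were 107 kb in HoxA, 41.8 kb in HoxB, 28 kb in HoxC and 196 kb in HoxD. That of HoxD lay above the 127 kb of all genes.

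Sites found in 3 or more lists were few, and this limit was set after the values were seen. Besides the sites in all ESC lists, HoxB held a site 20.4 kb upstream of Hoxb9, at the TSS of Gm53, with MBD3 in replicate 2 (14.9), CHD4 in replicate 2 (7.14) and SIN3A (7.39 without and 3.78 with spike-in). A site 8.63 kb downstream of the Hoxb13 TSS had MBD3 in replicate 2 (8.06), CHD4 in replicate 2 (10.4) and SIN3A without spike-in (13.5). In HoxC, a site 8.17 kb downstream of the Hoxc4 TSS had MBD3 in replicate 2 (12.5) and CHD4 in both replicates (6.78 and 16). In HoxA the site in most lists, 6.62 kb downstream of the Hoxa2 TSS, had peaks in 5 lists, of CHD4 in both ESC replicates and in NPCs and of SIN3A in both lists, and none of MBD3. The remaining sites of this kind were those of Hoxa4 and Hoxb9 above and a site in Hoxc9, 4.87 kb from its TSS, with CHD4 replicate 2 and both SIN3A lists.

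In HoxD no site had peaks in more than 2 lists. The one with the highest value, by which ties were decided, lay in an exon of Evx2, a homeobox gene next to the cluster, 12.8 kb upstream of Hoxd13. CHD4 had values of 15.2 in ESC replicate 1 and 24.3 in replicate 2 there, above 89.9% and 97.1% of these lists. A neighbouring site 12.4 kb upstream of Hoxd13 had CHD4 values of 6.78 and 22.7. Of the CHD4 peaks of ESC replicate 1 in the extended clusters, 14 of 17 overlapped a peak of replicate 2 (82.4%, 56.6 to 96.2), against 70.4% over the whole list. For MBD3 it was 2 of 3 peaks of replicate 1, against 64.3%. SIN3A peaks with spike-in overlapped one without spike-in in 8 of 19 cases (42.1%, 20.3 to 66.5), against 77.4% over the whole list, which lay above the interval. In the other direction it was 7 of 17 (41.2%, 18.4 to 67.1), against 53.3%, which lay inside the interval.

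Peaks in the clusters were richer in CpGs than the other CHD4 peaks. In their central 200 bp the median was 6 CpGs per 100 bp in ESC CHD4 replicate 1, 4.5 in replicate 2 and 5.5 in NPC CHD4, against 1.5, 1.5 and 1 over all peaks of these lists. The median GC content was 60.5%, 59% and 59.2%, against 50%, 51.5% and 49%. SIN3A peaks in the clusters were not richer in CpGs than the rest, with medians of 7 and 8.5 per 100 bp without and with spike-in against 8 and 9.5. The string bound by AP-1 (TGACTCA or TGAGTCA, on either strand) was found in 42.2% of all NPC CHD4 peaks and in 0 of the 8 in the clusters (exact interval up to 36.9%). In ESC MBD3 replicate 2 it was found in 2 of 8 peaks of the clusters (25%, 3.19 to 65.1), against 4.06% of all its peaks, and in replicate 1 in 0 of 3. The octamer was found in 3 of 45 peaks of ESC CHD4 replicate 2 in the clusters (6.67%, 1.4 to 18.3), against 2.41% of all its peaks, and in 0 of 17 of replicate 1 (up to 19.5%), against 2.62%.

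The median value of the peaks in the clusters, against that of the whole list, did not keep 1 direction between the lists of a factor. For CHD4 it was 6.78 against 8.05 in ESC CHD4 replicate 1, 8.89 against 8.63 in ESC replicate 2 and 7.97 against 9.06 in NPCs. For MBD3 it was 6.06 against 7.93 in ESC replicate 1 and 9.36 against 8.28 in ESC replicate 2. For SIN3A it was 9.05 against 11.8 without spike-in and 8.69 against 8.66 with spike-in, and for GFP-ZFP296, with 1 list, 6.95 against 8.43.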

How the data were processed

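Peak lists of 9 ChIP-seq samples were analysed. The other 27 samples of the series were not analysed here. Per the study's methods, the authors mapped reads to mm9 with BWA, kept unique reads of sufficient quality, removed duplicates and called peaks per sample with MACS (version 2.0 in the submitters' processing notes) with input chromatin of the same line as reference. The deposited lists hold the authors' −log10 value for each peak, with no statement of whether it comes from p or from q. Peak names give thresholds of 0.001, or 0.0001 for SIN3A without spike-in, so SIN3A thresholds and preparations cannot be told apart.

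Genes were grouped by symbol and chromosome in GENCODE vM1. The Hox genes and lists were chosen with earlier results of these data known. Named genes were the 38 Hox genes, genes whose TSS lay in an extended span near a peak, and listed regulators with a TSS peak. Single peaks were described for each gene, although the rule, with 41 peaks over all lists, named the 3 of highest value per list. Sites shown by sequence were taken from those in most lists and the TSS peaks of highest value, where they overlapped no annotated UTR, except the second HoxC site. The HoxA site in 5 lists, the Hoxa4 CHD4 peak of NPCs and the Hoxb9 SIN3A peak with spike-in also met this and were not shown. 1 further gene of the HoxA span is not reported here. Sites were merged where peaks overlapped by 1 bp. Shares have Clopper-Pearson intervals, and densities have exact Poisson intervals. The counting was tested on simulated data. Alternatives were other windows, extensions, overlaps, values and list lengths. Python 3.11.15, numpy 2.4.6, scipy 1.17.1, pysam 0.24.0 and matplotlib 3.10.9 were used.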

Additional observations from a re-analysis of the deposited data

How the results depend on the processing

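Of 122 alternatives to 37 results, 69 stayed within a factor of 1.5 (or within the interval of a share) and 53 moved. Direction was not assessed, because each result is a single count or share. Genes and span peaks at the alternative settings were counted for the Hox genes and clusters alone. The share over all genes and the level of the chromosomes were not computed at these settings. These counts therefore do not show whether a number is high or low for Hox genes. With a window of 5 kb around a TSS, Hox genes with a peak numbered 3 and 2 for ESC MBD3 (replicates 1 and 2), 10 and 25 for ESC CHD4, 6 for NPC CHD4, 2 for GFP-ZFP296, and 10 and 15 for SIN3A without and with spike-in. With a value of at least 10, they numbered 0 for ESC MBD3 replicate 1, 1 and 6 for ESC CHD4, 0 and 1 for NPC MBD3 and CHD4, and 1 and 1 for SIN3A. With every list cut to its 2304 highest peaks, they numbered 1 and 0 for ESC CHD4, 0 for NPC CHD4, and 0 and 0 for SIN3A.

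Peaks in the spans with 100 kb of extension numbered 8 and 13 for ESC MBD3, 31 and 71 for ESC CHD4 and 14 for NPC CHD4. With no extension they numbered 3 for ESC MBD3 replicate 2, 10 for ESC CHD4 replicate 1, 0 for NPC MBD3 and 4 for NPC CHD4. At a value of at least 10 they numbered 1 and 4 for ESC MBD3, 4 and 17 for ESC CHD4, 0 and 1 for NPC MBD3 and CHD4, 0 for GFP-ZFP296, and 7 and 5 for SIN3A. At equal list lengths they numbered 3 for ESC MBD3 replicate 2, 3 and 3 for ESC CHD4, 0 for NPC CHD4, and 1 and 3 for SIN3A. Counts this small do not settle whether CHD4 differs between ESCs and NPCs at equal list lengths.

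Sites of MBD3 in both lists fell from 2 to 1 at an overlap of 50%. Peaks of either list gave 9 sites of MBD3, 47 of CHD4 and 28 of SIN3A. Leaving out 1 replicate gave 3 to 8 MBD3, 17 to 45 CHD4 and 17 to 19 SIN3A sites. Without ESC CHD4 replicate 2, chosen after seeing the data, genes with an ESC peak fell from 17 to 13, central ones from 5 to 3, and merged sites from 71 to 51. No paired analysis was possible because no result comes from a test. The main limits are single NPC and GFP-ZFP296 lists, lists of unequal length, and peaks without read counts, so absence of a peak does not show absence of binding.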

Other observations

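Of 29 genes that regulate Hox genes or act with them, 5 had a CHD4 peak at a TSS in both ESC lists. These were Cdx1, Ctcf, Meis2, Rara and Rarg (17.2%, interval 5.85 to 35.8), and the interval included the 6.28% of all genes. MBD3 was found in both ESC lists at 2, Cdx1 and Ctcf (6.9%, 0.846 to 22.8). The lower end of that interval lay just above the 0.81% of all genes. Cdx1, a caudal-type activator of Hox genes, had MBD3 values of 6.47 and 8.28, CHD4 values of 10.3 and 16.3, a GFP-ZFP296 value of 15.4 and a SIN3A value of 23.2 without spike-in, and no NPC peak. It was the only one of the 29 with a GFP-ZFP296 peak, against 2.7% of all genes. Ctcf, whose product binds chromatin boundaries, had the highest value of the whole NPC MBD3 list (128) and of ESC MBD3 replicate 2 (80.3). In ESC MBD3 replicate 1 its value was 15.4, below the highest of that list (55.4). Its CHD4 values were 57.1 in NPCs and 11.8 and 58.5 in the ESC replicates.

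In NPCs 5 of the 29 had a peak, Ctcf, Egr2, Men1, Rarb and Rarg (17.2%, 5.85 to 35.8). The interval included the 13.1% of all genes. Egr2, a segmentation gene of the hindbrain, had NPC values of 4.96 for MBD3 and 9.66 for CHD4, and no MBD3 or CHD4 peak in ESCs. Rarb, a retinoic acid receptor gene, had an MBD3 peak in NPCs alone (9.66), and Rarg, another, had CHD4 in NPCs (12.5) and in both ESC replicates (5.98 and 14.3). SIN3A was found at 9 of the 29 in both lists (31%, against 30.1%). Of 51 homeobox genes outside the clusters, 5 had SIN3A in both lists (9.8%, against 30.1%) and 1 had CHD4 in both ESC lists (1.96%, against 6.28%).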
